A study of Ovis aries with 16 samples.

Results

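The strongest 1000 methylation peak regions of fetal longissimus dorsi (LD) muscle were chosen by their peak scores over 16 sheep fetuses, out of 706111 regions. Peaks of all fetuses that shared at least 1 bp were merged into regions. Each peak was scored as −log10 of the P-value deposited for it, and each region took the highest score of each fetus, or 0 where no peak was called. Regions of chromosomes 1 to 26 narrower than 5000 bp were ranked by the median of the 16 scores, and the highest 1000 were kept. They made up 0.203% of the 493190 regions on these chromosomes with a peak in at least 2 fetuses, called consensus regions here, and 0.371% of the bases in them. Because the scores themselves chose the members, their height is given as a description only.

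Methylated DNA was captured from LD muscle with a methyl-binding domain (MBD) protein and sequenced, and peaks were called in each fetus separately. The fetuses came from Polypay ewes, 8 from ewes given a hay diet, which was alfalfa haylage, and 8 from ewes given a corn diet, which was corn with a supplement and a little haylage. Both diets were fed from mid-gestation until the ewes were killed in late gestation, and no other treatment was applied to either group. Most fetuses shared a dam with a twin, but the dam and the sex of a numbered fetus are not given. Every test below therefore treats the fetuses as separate samples. Diet was given to the ewe, and each diet had fewer ewes than fetuses. The P-values and SEs for diet may thus be too small, and n = 8 counts fetuses and not ewes. The variance behind each P-value and SE is drawn partly from other regions, so neither measures only the spread between fetuses at that region. The number of peaks per fetus ran from 261331 in Hay 11 to 519923 in Hay 15, and read depth is unknown because no counts are in the files analysed here. No genome sequence or annotation of the build, Oar_v3.1, was used here, so regions are given by position alone.

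MBD proteins hold DNA through methylated CpG sites, cytosines followed by guanine that carry a methyl group. In mammalian muscle most CpG sites are methylated except in CpG islands at active promoters, and repeated DNA such as transposons and satellites is kept methylated, which holds it silent. A fragment is captured more readily the more methylated CpG sites it carries, so a strong peak marks a stretch that is both rich in CpG and methylated, and the reads over a repeat grow with the number of its copies in the genome. How much each of these contributed to the members was not tested.

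The median score of the members ran from 6.80 to 100, with a median of 10.6 over the members and quartiles of 8.12 and 17.8. A score of 100 stands for a deposited P-value of 0, so it is a ceiling and not a measured height. The median was at this ceiling in 52 members, and the highest median below it was 81.2. At least 1 fetus was at the ceiling in 93 members, and all 16 fetuses were in 35. The 3 members just inside the limit had medians of 6.81 at chr13:34156561-34158108, 6.80 at chr1:98599765-98600828 and 6.80 at chr18:66535931-66538754. The 3 regions just outside it had 6.79 at chr3:133741631-133744633, 6.79 at chr18:66515030-66518811 and 6.79 at chr2:111937978-111939372. The limit thus falls in a continuous range of scores.

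The 10 members placed highest all had a median of 100 and were ordered by position alone. Of these, 7 were at 100 in all 16 fetuses, namely chr1:110953283-110954807, chr1:110955702-110959916, chr1:235920754-235921956, chr1:239842712-239844507, chr2:144248294-144252430, chr2:160927274-160928366 and chr2:215975254-215976801. The first 2 of these lie next to each other, with less than 1 kb between them. At chr1:228480432-228482486, Corn 4 scored 65.4 and Hay 12 scored 65.8, and the other 14 fetuses were at 100. At chr1:29764452-29766354, Corn 4 scored 38.0, Hay 3 42.0, Hay 12 44.0, Hay 15 47.1 and Hay 16 54.4, with the remaining 11 at 100. The member at chr1:189958243-189960106 had the same 5 fetuses below the ceiling, from 37.6 in Corn 4 to 53.3 in Hay 3.

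A peak was present in all 16 fetuses at 996 members, in 15 at 3 members and in 14 at 1 member. Among consensus regions of the same chromosomes 17.5% had a peak in every fetus. The rule favours such regions, since a median above 0 needs a peak in at least 8 fetuses. At chr19:0-1303, which begins at the first position of its chromosome, Corn 2 had no peak, although 6 fetuses were at 100 and the other 9 scored between 42.5 and 64.5. At chr4:0-1152 no peak was called in Corn 6, and the other 15 fetuses scored between 10.1 and 27.6. Corn 6 also lacked a peak at chr4:55700-56455, where the others scored from 4.55 to 9.55. At chr12:14245641-14246048 no peak was called in Hay 10 and Hay 11, the pair of fetuses with the fewest peaks, and the others scored from 3.71 to 15.1. Of the 4 members without a peak in some fetus, 3 therefore lie within the first 100 kb of a chromosome.

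More members were a single peak than a cluster of peaks. Their median width was 1483.5 bp, with quartiles of 1003 and 2106 bp, against 1577 bp for the 79698 other regions of the same width limit that had a peak in all 16 fetuses. In 524 members every fetus had exactly 1 peak, and 169 members were called as 3 or more peaks in some fetus, with at most 6. The peaks of a fetus covered on average 82.0% of the width of a member (median over members) but 65.5% of the other regions present in all 16 fetuses. The narrowest member, chr19:16741820-16742084, was 265 bp wide and its peaks covered between 254 and 263 bp in every fetus, with scores from 3.36 in Hay 15 to 9.09 in Corn 2. The widest, chr20:50678588-50683571, was 4984 bp wide, and the bases under its peaks ran from 1386 bp in Corn 4 to 4372 bp in Corn 9. The bases under peaks were thus nearly equal among fetuses at the narrowest member and differed more than 3-fold at the widest. Both were picked by the merged width of the peaks of all fetuses, so the contrast partly follows from that choice.

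The width limit of the rule left out broad regions that were as strong. On chromosomes 1 to 26, 121 regions of 5 kb or more had a median at or above that of the last member, and 17 of them had a median of 100. On the X chromosome, which the rule leaves out, 86 regions narrower than 5 kb reached that median.

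Every fetus contributed high scores to the members, at levels that differed between fetuses. The median score over the 1000 members was lowest in Hay 12 at 8.29 and highest in Corn 14 at 15.1. It was 10.4 ± 1.49 (SD, n = 8) in hay and 12.1 ± 1.97 (SD, n = 8) in corn, with ranges of 8.29 to 13.1 and 8.73 to 15.1 that overlap. The other regions with a peak in all 16 fetuses had a median score of 2.23 ± 0.363 (SD, n = 8) in hay and 2.60 ± 0.412 (SD, n = 8) in corn. The ratio of the members' median to that of the other regions stayed between 4.37 in Hay 5 and 5.003 in Hay 15. The fetuses that were high over the members were therefore high over the other regions too, and scores were divided by a factor for each fetus, from 0.765 to 1.38, before any comparison. Between 41 members in Hay 12 and 81 in Corn 14 were at the ceiling of 100.

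**Figure D1:**
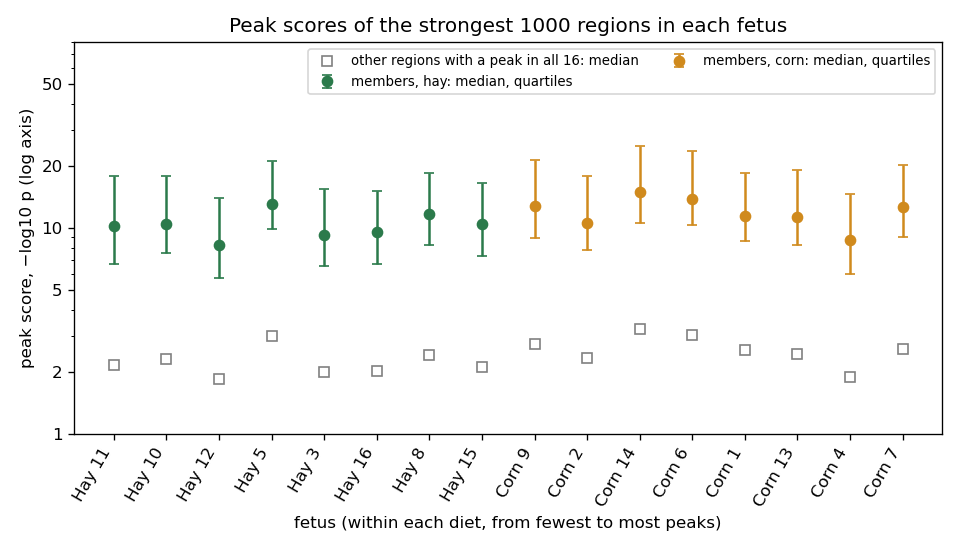
Peak score (−log10 of the deposited P-value, log axis) in each of the 16 fetuses, ordered within each diet by number of peaks. Filled points are medians over the 1000 members with bars for the quartiles, and open squares are medians over the other regions with a peak in all 16 fetuses; the members' medians lie between 8.29 and 15.1 and the squares between 1.83 and 3.22.

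Chromosome 1 held 269 members, 26.9% of the list, although it has 11.1% of the consensus regions and 11.8% of those narrower than 5 kb with a peak in all 16 fetuses. Per 1000 consensus regions it had 4.92 members, against 1.67 over chromosomes 2 to 26 together. Chromosome 9 came next with 2.70, and chromosome 8 was lowest with 1.03. Set against the regions with a peak in all 16 fetuses, the gap between chromosome 1 and the others was of similar size, at 28.3 members per 1000 regions on chromosome 1 and 10.2 elsewhere. The members of chromosome 1 were also narrower, with a median of 1162 bp against 1540 bp for those elsewhere, and had a lower median score of 9.56 against 11.1. The excess grew towards the limit of the list. Chromosome 1 held 13.5% of the 52 members with a median of 100 and 14.7% of the 68 between 30 and 100, but 33.9% of the 218 between 8 and 10 and 32.6% of the 230 below 8.

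Within chromosome 1 the members crowded at the beginning. The first 10 Mb held 51 of them and the first 30 Mb held 98, or 11.9 per 1000 consensus regions in that stretch. The remaining 171 members came to 3.69 per 1000, which was still above the value of every other chromosome. The first 30 Mb of chromosome 9 had 33 members, or 5.54 per 1000, and that of chromosome 6 had 22, or 3.87 per 1000. At the other end of the scale, chromosomes 3, 14 and 20 had fewer than 0.9 members per 1000 consensus regions in their first 30 Mb.

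**Figure D2:**
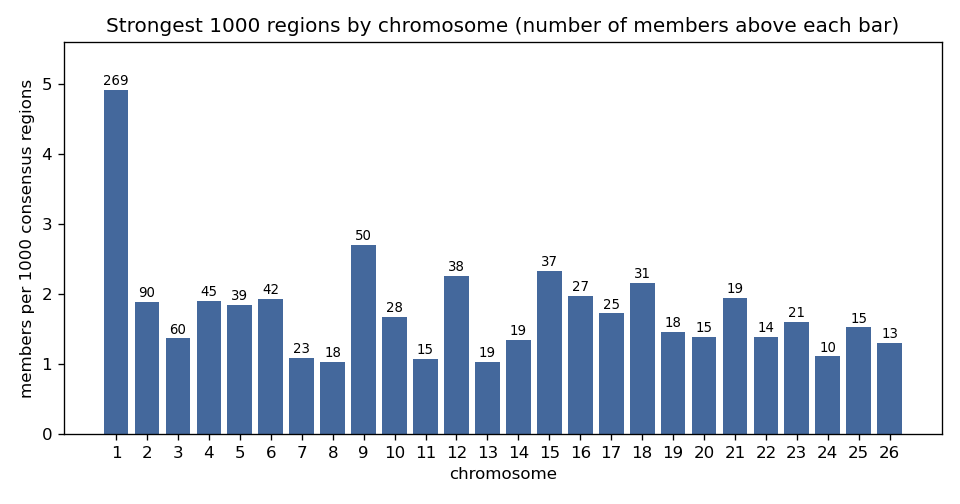
Members per 1000 consensus regions (vertical axis, from 0) on each of chromosomes 1 to 26, with the number of members printed above each bar. Chromosome 1 stands at 4.92 with 269 members, and the other chromosomes lie between 1.03 and 2.70.

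The starts of chromosomes held a larger share of members than of consensus regions, and about the same share as of regions of 5 kb or more. In the sheep, chromosomes 1 to 3 are metacentric and the other autosomes are acrocentric, with the centromere close to 1 end, and DNA near centromeres and telomeres is rich in repeats. The first 2 Mb of the chromosomes held 88 members, or 8.8%, against 2.02% of consensus regions, 3.06% of the other regions with a peak in all 16 fetuses and 8.19% of the regions of 5 kb or more. In the first 100 kb alone there were 30 members, 3.0% of the list, against 0.113% of consensus regions, and 8 members began at the first position of their chromosome. The last 2 Mb before the end of the last peak held 54 members, or 5.4%, which lies between the 2.94% of consensus regions and the 7.90% of the other regions called in all 16. Of the regions of 5 kb or more, 30.3% lay in the last 2 Mb, so the width limit removed regions there more than elsewhere. Of the 52 members with a median of 100, 9 lay in the first 2 Mb and 6 (11.5%) in the last 2 Mb, but among members with medians of 30 to 100 and of 15 to 30 the last 2 Mb held 2.94% and 1.94%.

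Most members were far from the next, with a median gap of 1019698.5 bp, but some lay in short chains. Another member lay within 10 kb for 119 of them, in 47 chains, of which 33 were pairs and 7 were triplets, and 881 had no other member that near. Consensus regions of any strength were fewer around the members than around the other regions called in all 16. The median number of other consensus regions starting within 10 kb of the middle of a region was 3 for the members and 5 for the other regions with a peak in all 16 fetuses, and 6.5% of members had none against 1.70%. The longest chain had 6 members within 24612 bp at chr9:13107697-13132308. Next came 5 members within 22032 bp at chr5:107876052-107898083, 2 of them with a median of 100, and 5 within 20139 bp at chr26:5617669-5637807.

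The 6 members of the chain on chromosome 9 differed in strength and only partly shared a pattern over the fetuses. Their medians were 20.9, 11.6, 7.12, 34.5, 34.6 and 10.6 in order of position. Hay 11 was the lowest fetus at 5 of the 6, with scores of 7.48, 3.96, 2.87, 18.7 and 2.97. Hay 15 was the highest at the first 3, with 38.2, 26.1 and 21.4. The fourth member, chr9:13123392-13127694, behaved differently, since 7 fetuses (Corn 1, Hay 5, Corn 6, Corn 7, Corn 9, Corn 14 and Hay 15) were at 100 and the other 9 lay between 18.6 and 36.5. It begins less than 1 kb after the third member ends, and Corn 9 was at 100 there but at 4.55 in the third. The members of this chain were thus not all at a common level in a fetus, although 5 of the 6 rose with the number of peaks in the fit described below.

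The spread among fetuses was unequal over the members. The highest score of a member was 2.91 times its lowest at the median. Among the 79698 other regions narrower than 5 kb with a peak in all 16 fetuses it was 2.83 times. The ratio was under 2 in 129 members, 89 of them with no fetus at the ceiling, and in 3348 of those other regions. It was 10 or more in 25 members (2.5%) and in 20 of the other regions (0.0251%). These shares are not compared on equal terms. The other regions had a peak in every fetus by definition, and their median score was 2.34. No deposited P-value was above 0.1352, so a low score could not fall far and a ratio of 10 was harder to reach there. A score of 100 is a ceiling, so ratios that involve it depend on the value given to a P-value of 0. Of the 25, 4 had a fetus at 100 and 4 had a fetus without a peak. Ties included, Hay 11, which had the fewest peaks, was lowest at 13 of the 25, and Hay 15, which had the most, was highest at 11.

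The largest spread was at chr4:112435955-112438641. Corn 2, Hay 15 and Hay 16 were at 100 there, while the other 13 fetuses scored from 2.54 in Hay 11 to 27.2 in Corn 14, so fetuses of both diets were at either extreme. The SD of log2(scaled score + 1) over the 16 fetuses was 1.77 at this member. Next in spread were chr19:0-1303, described above, with an SD of 1.56, and chr17:15315347-15316808 with 1.49. At the other end, chr10:37036295-37037320 had an SD of 0.0937, with scores from 27.8 in Hay 12 to 56.6 in Corn 6. The member at chr1:19568875-19569828 scored from 11.8 in Hay 3 to 18.2 in Hay 5, and chr22:3135093-3136498 from 13.1 in Hay 12 to 24.9 in Corn 14. At each of these 3 the scores of all fetuses lay close to the level set by the scaling factor of the fetus.

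Variation among fetuses at many members followed the number of peaks called in the fetus, which overlapped between the diets, at 405167 ± 88355 peaks (SD, n = 8) in hay and 396176 ± 70011 (SD, n = 8) in corn. The slope of log2(scaled score + 1) on log2 of the number of peaks was fitted with limma, with diet in the model, over all consensus regions. At an adjusted P under 0.1, the score rose with the number of peaks in 318 members and fell in 309. Scaling was set over the regions with a peak in all 16 fetuses, and those outside the list had a median slope of 0.02. Rises and falls, and the balance between them, are therefore relative to such regions. Of all consensus regions tested 18.2% rose and 2.94% fell, where a fetus with more peaks has by construction a score above 0 at more regions. Among the 88488 regions with a peak in all 16 fetuses, fitted by themselves with limma, 12.5% rose and 13.5% fell, whereas 279 (28.0%) and 241 (24.2%) of the 996 members in that fit did. The median size of the slope, whatever its sign, was 0.53 log2 units per doubling of the number of peaks for these members and 0.28 for the other regions. Adding 1 before the log2 compresses low scores, and the members were chosen for high ones, so these sizes and counts are not compared between the groups on equal terms. Without scaling 211 members rose and 396 fell, against 11.8% and 3.49% of all consensus regions and 1.45% and 14.2% of the other regions called in all 16, which also leaned to falls. With eBayes without trend, which pulls the variance of each region towards a common value, 214 members rose and 124 fell. In that fit 18.9% and 1.57% of all consensus regions did, and 4.48% and 5.32% of the other regions called in all 16.

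**Figure D3:**
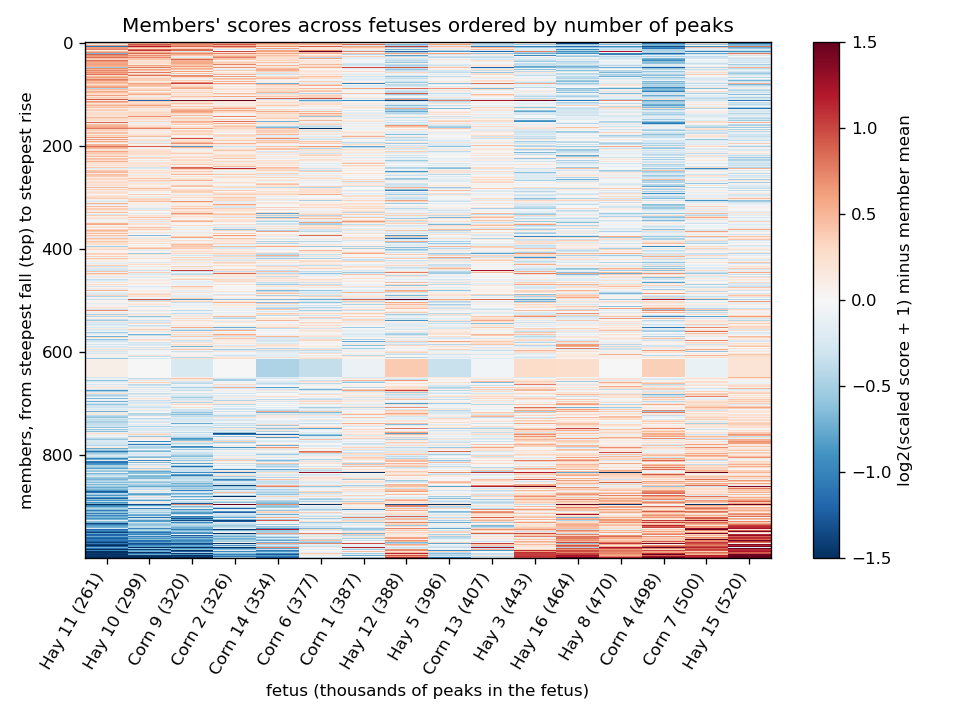
Log2(scaled score + 1) of the 1000 members (rows) minus the mean of the member, in the 16 fetuses (columns) ordered from fewest to most peaks; rows run from the steepest fall with the number of peaks at the top to the steepest rise at the bottom. The 309 members that fell and the 318 that rose lie towards the top and the bottom, and the even band in the middle holds members at the ceiling of 100, where colour shows the scaling factor alone.

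The steepest rises spanned most of the range of scores. At chr17:15315347-15316808 the score was 2.48 in Hay 11, 4.50 in Hay 10 and 6.84 in Corn 9, the 3 fetuses with the fewest peaks. It was 56.3 in Corn 4, 57.5 in Corn 7 and 100 in Hay 15, the 3 with the most. The fitted slope was 4.80 ± 0.23 (SE) log2 units per doubling (limma, adjusted P = 3.90e-33). The next steepest were chr18:66456494-66461465, from 3.99 in Hay 11 to 100 in Corn 7 and Hay 15, and chr9:17567750-17568774, from 2.82 in Hay 11 to 42.3 in Hay 15. At chr22:2433381-2436508 the range was 2.74 in Hay 11 to 44.3 in Hay 15. In all 4 regions the 3 fetuses with the fewest peaks had the 3 lowest scores.

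The steepest falls were smaller. At chr12:58200572-58200865, 294 bp wide, scores were highest in Corn 14 at 20.9 and lowest in Hay 16 at 1.02, with a slope of -1.93 ± 0.27 (SE; limma, adjusted P = 6.60e-08). At chr6:116703473-116705634 Hay 11 had 23.7 and Corn 4 had 3.42. At chr1:89982064-89983190 the range was 4.97 in Hay 16 to 37.0 in Corn 14, and at chr19:53087218-53089471 it was 15.6 in Corn 7 to 58.05 in Hay 11. At chr19:53087218-53089471 the 5 fetuses with the most peaks scored 15.6 to 24.7 and the 2 with the fewest scored 56.4 and 58.05, without overlap.

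**Figure D4:**
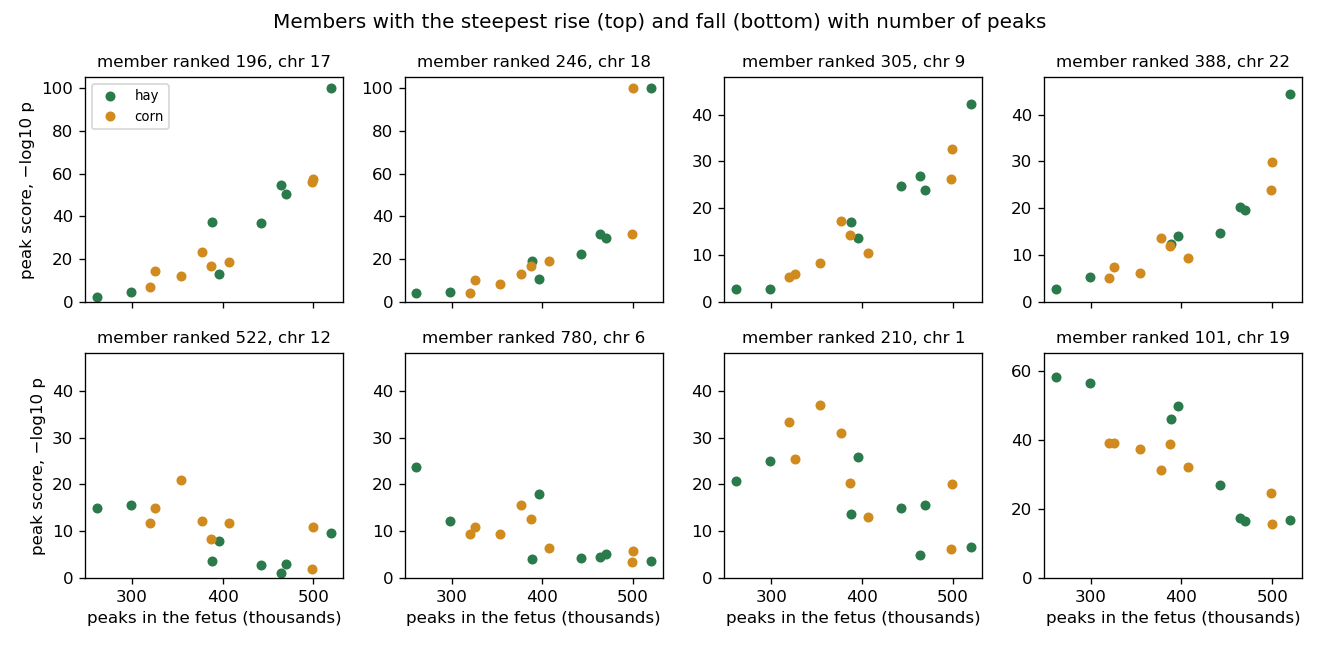
Deposited peak score (vertical axes, from 0) against the number of peaks in the fetus (horizontal axes) for the 4 members with the steepest rise (top) and the 4 with the steepest fall (bottom); each point is 1 of the 16 fetuses, coloured by diet. At the member ranked 196 the score goes from 2.48 in the fetus with the fewest peaks to 100 in the fetus with the most.

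Members that rose and members that fell were spread unequally over the chromosomes, as counts show; no test of this was made. Of the 269 members on chromosome 1, 141 (52.4%) rose and 48 (17.8%) fell, while of the 731 on other chromosomes 177 (24.2%) rose and 261 (35.7%) fell. The other regions of chromosome 1 with a peak in all 16 fetuses leaned the same way at lower rates, with 16.5% that rose and 6.62% that fell, against 5.53% and 9.96% on the other chromosomes. In the first 30 Mb of chromosome 1, 63 of 98 members rose and 11 fell, where 15.5% of the other regions of that stretch rose and 8.08% fell. The median slope was 0.44 log2 units per doubling over the members of chromosome 1 and -0.15 over the rest. Members that rose had a median width of 1197 bp and those that fell 1540 bp, and under 1000 bp 46.4% rose and 20.4% fell. Other regions under 1000 bp leaned the same way, with 9.92% that rose and 3.91% that fell. In the last 2 Mb of the chromosomes 7 members rose and 23 fell of 54, and the other regions there leaned the same way, with 2.40% that rose and 24.2% that fell. In the first 2 Mb 32 rose and 20 fell of 88, where 5.12% of the other regions rose and 14.9% fell.

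In deposited scores, the chromosome 1 members were weaker than the others in the fetuses with few peaks and about level with them in some other fetuses. The median over the 269 chromosome 1 members was 0.667 times that over the other 731 members in Hay 11, 0.708 times in Corn 9 and 0.804 times in Hay 10. It was 1.06 times in Corn 4, 1.03 times in Hay 12 and 0.972 times in Hay 3. The ratio did not follow the number of peaks in every fetus, since Hay 15, with the most, had 0.909. The cause of the difference between chromosomes was not tested.

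The diets were compared over the same regions with limma on log2(scaled score + 1). No member passed an adjusted P of 0.1 in either direction, against 0.000195% of all consensus regions higher in hay (1 of 512238) and 0.00039% higher in corn (2 of 512238). The median difference over the members, hay minus corn, was -0.02, with 464 members above 0 and 536 below, and over all regions tested it was 0.02. At an unadjusted P under 0.05, 67 members were higher in hay and 87 higher in corn, or 6.7% and 8.7%, where all consensus regions gave 1.43% and 1.73%. That excess was not seen in every fit. Among the regions with a peak in all 16 fetuses, fitted by themselves with limma, 16 (1.61%) and 24 (2.41%) members passed, where 2.51% and 2.06% of those regions did. That refit left the fitted differences unchanged at the members with the smallest p that it held, such as 0.998 and -0.47. Their P-values thus changed only through the variance estimate, which is drawn partly from the other regions fitted. With eBayes without trend over all consensus regions, which changes the variance estimate alone, 7 members were higher in hay and 11 higher in corn at this threshold. The share of all consensus regions is not given for that fit. Members at 100 in every fetus all had a difference of 0.23, which the scaling factors alone set (0.938 ± 0.158 in hay and 1.10 ± 0.186 in corn; SD, n = 8), and with the 93 members that reached 100 left out, 66 and 79 passed the unadjusted threshold. Without scaling, 1 member was higher in hay and 14 higher in corn at an adjusted P under 0.1 in limma, where 0.00039% and 0.00859% of all consensus regions were, and the median difference was -0.23 over the members and -0.16 over the other regions called in all 16.

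**Figure D5:**
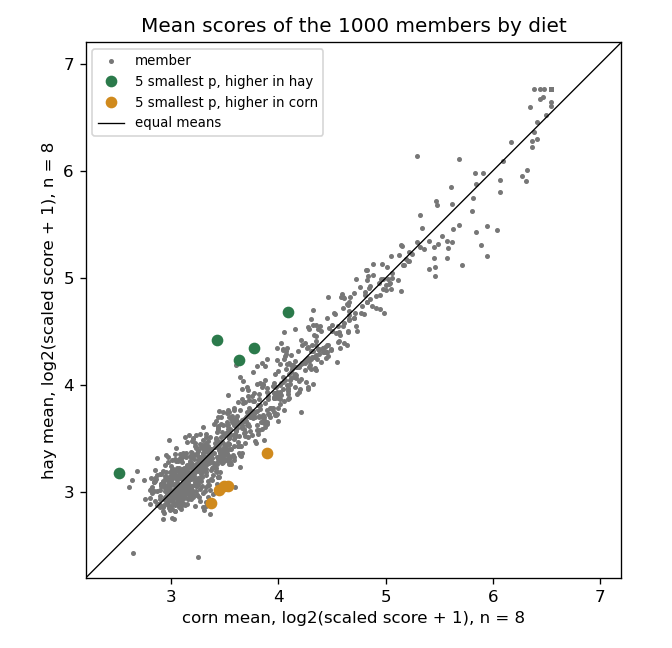
Mean log2(scaled score + 1) over the 8 hay fetuses (vertical axis) against the 8 corn fetuses (horizontal axis) for each of the 1000 members, with the line of equal means. Green and orange points are the 5 members with the smallest limma p in each direction, none of which passed an adjusted P of 0.1; the points at the upper right above the line are members at the ceiling of 100.

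The members with the smallest p were not separated by diet in the deposited scores. Higher in hay, chr17:13769306-13772303 had a lowest, median and highest score of 4.21, 23.0 and 43.6 in hay and 2.89, 16.2 and 22.4 in corn. Its difference was 0.998 ± 0.22 (SE) on the log2 scale (limma, adjusted P = 0.722). The SD of log2(scaled score + 1) there was 0.886 in hay and 1.19 in corn (n = 8 each). Low scores under 5 occurred in Hay 12, Corn 7, Corn 9 and Corn 14, so both diets held low and high fetuses. At chr1:1677684-1680252 the values were 9.54, 16.1 and 31.3 in hay and 10.5, 12.5 and 14.2 in corn, and the hay fetuses Hay 3, Hay 10 and Hay 12 lay above 20. At chr1:14225361-14227658 they were 17.9, 23.8 and 28.0 in hay and 8.85, 18.0 and 25.4 in corn. The other 2 were chr4:55700-56455, where Corn 6 had no peak, and chr22:49940349-49943585, with differences of 0.67 ± 0.17 and 0.57 ± 0.16 (SE). Without Corn 6 the first of these was 0.31. Each of the 5 overlapped between the diets.

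Higher in corn, chr1:29433971-29434785 had the smallest p of any member, with a difference of -0.47 ± 0.10 (SE; limma, adjusted P = 0.408). Its lowest, median and highest scores were 5.21, 6.24 and 10.9 in hay and 5.53, 12.4 and 16.9 in corn. Corn 4 lay among the hay fetuses and Hay 5 among the corn fetuses. At chr1:175395597-175396680 they were 5.09, 7.05 and 9.47 in hay and 7.23, 10.9 and 18.6 in corn, with a difference of -0.43 ± 0.09 (SE; limma, adjusted P = 0.722). This was the only member at which the scaled scores of the diets did not overlap, with every corn fetus above every hay fetus, and it was 1 of 1000 members where 0.00332% of consensus regions showed this. No member had every hay fetus above every corn fetus, which 0.00273% of consensus regions showed. The deposited scores of this member did overlap, since Corn 4 scored 7.23. The remaining 3 were chr1:20682922-20684697, chr6:110465507-110467382 and chr15:66336380-66338039, with differences of -0.52 ± 0.12, -0.47 ± 0.11 and -0.42 ± 0.10 (SE).

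The bases under peaks gave no member that differed between diets. On log2(bases + 100), 0 members passed an adjusted P of 0.1 in limma in either direction, and the share of all consensus regions was 0% in both. At an unadjusted P under 0.05, 0 members were wider in hay, where 0.856% of all regions were, and 4 were wider in corn, where 3.39% were. The median difference over members was -0.03, and it became 0.07 when the bases were scaled for each fetus, so its direction depended on the scaling. The median number of bases under peaks per member was 1140.5 ± 47.5 bp (SD, n = 8) in hay and 1178 ± 46.9 bp (SD, n = 8) in corn. At chr1:134932589-134935603 peaks covered 1724 ± 353 bp (SD, n = 8) in hay and 2254 ± 424 bp in corn (limma, adjusted P = 0.801). At chr1:26530727-26533470 they covered 1798 ± 437 bp in hay and 2239 ± 260 bp in corn (SD, n = 8; limma, adjusted P = 0.801). In the other direction, chr18:26349575-26352957 had 2135 ± 484 bp in hay and 1746 ± 539 bp in corn (SD, n = 8), and chr19:0-1303 differed only through the absent peak of Corn 2. None of these 4 differences passed the adjusted threshold.

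The list was also remade from the fetuses of each diet alone. Taking the median over the 8 hay fetuses alone kept 913 of the 1000 members, and over the 8 corn fetuses alone kept 935. Each of these lists used 8 of the fetuses that made the full list, so part of that overlap follows from how they were made. The hay list and the corn list, which had no fetus in common, shared 858 regions, 85.8% of each.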

How the data were processed

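Per the labels and the study's methods, the authors used Trimmomatic 0.33 for trimming, BWA 0.7.15 for alignment to Oar_v3.1, Picard 1.107 for duplicates and ChIPseeqer for peaks, fetus by fetus. The deposited value of each peak was read as its P-value, since it lay between 0 and 0.1352. No threshold or input control is given in the sources used here, and whether positions count from 0 or 1 is not stated. P-values of 0 were set to 1e-100.

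Scaling factors were median ratios across 88488 regions called in all 16 fetuses. Differences (hay minus corn) and slopes were fitted with limma 3.58.1 (R 4.3.3; eBayes with trend) on log2(scaled score + 1) or log2(bases + 100) over 512238 consensus regions, with Benjamini-Hochberg adjustment at 0.1. The diet fit was tested on simulated data, drawn as independent normal values for regions with a peak in all 16 fetuses. Those data held no absent peaks, no ceiling and no twins, so the test does not cover these. Each chromosome was taken to end with its last peak. Other computations used Python 3.11.15, numpy 2.4.6, pandas 2.3.3 and scipy 1.17.1.

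The members, tests and lists were chosen with earlier results of these data known, and the fit on the number of peaks was added after the variation among members was seen. Named regions were the 10 highest, 3 on each side of the limit, the 5 smallest p for score and 2 for width in each direction, the 3 largest and 3 smallest SD, the widest, the narrowest and the longest chain. The steepest slopes, the members lacking a peak and those with groups that do not overlap were named after their values were seen. Alternatives covered scaling, pseudocounts, region filters, the ceiling, covariates, the list and each fetus left out.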

Additional observations from a re-analysis of the deposited data

Results flagged for a closer look

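In 110 groups of 8 fetuses of a diet, over the named members and the summaries of members per fetus, a single fetus stood far from the other 7 in 9 cases. Chance flags about 1 in 20 groups, but some of these members were named for an absent peak, a large SD or a steep slope, so the 9 cannot be set against that rate. In corn fetuses, Corn 4 had 788 members with exactly 1 peak, fewer than the other 7. On the log2(scaled score + 1) scale, Corn 4 was also the lowest corn fetus at chr1:29764452-29766354 (5.64), chr1:189958243-189960106 (5.62), chr1:29433971-29434785 (3.01) and chr12:58200572-58200865 (1.79). Corn 6 stood at 0 at chr4:55700-56455 and at chr4:0-1152, and Corn 2 at 0 at chr19:0-1303. Hay 11, with the fewest peaks, was lowest among hay at chr1:98599765-98600828 (1.83).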

How the results depend on the processing

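With an adjusted P under 0.1 (limma), the 0 members higher in hay and 0 higher in corn became 1 and 14 without scaling, 0 and 3 with a pseudocount of 5, 11 and 9 over all merged regions, 3 and 7 with the number of peaks as a covariate, and 0 and 2 with scores of 100 left unscaled. Leaving out single fetuses gave 0 to 5 higher in hay and 0 to 6 higher in corn, the highest counts coming without Corn 4 (5 and 5) and without Hay 11 (5 and 6). At an unadjusted P under 0.05 the 67 and 87 members became 8 and 403 without scaling, 16 and 24 over regions called in all 16 fetuses, 171 and 164 over all merged regions, 115 and 143 with the covariate, 7 and 11 with eBayes without trend, and 133 higher in corn with scores of 100 unscaled. Without single fetuses they ran from 48 to 139 in hay and 59 to 140 in corn. The median difference, -0.02, was -0.23 without scaling. For bases under peaks at the unadjusted threshold, the 0 members higher in hay became 3 with scaled bases and 1 with the covariate, and the 4 higher in corn became 1 with scaled bases; leaving out single fetuses gave 0 to 1 and 1 to 12, the latter without Corn 4. The median difference turned from -0.03 to 0.074 with scaled bases.

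For the number of peaks, 211 members rose without scaling and 124 fell with eBayes without trend, against 318 and 309; leaving out single fetuses gave 277 to 318 and 225 to 312. The first 500 regions of the ranking had 3.6% in the last 2 Mb, 22.4% on chromosome 1 and 9.6% within 10 kb of another, and the first 2000 had 14.15% within 10 kb, against 5.4%, 26.9% and 11.9%. For the 14 members named for diet, the alternatives gave 335 differences, counted per member and setting. None of these changed direction, and in 44 the member passed the adjusted threshold. The members were picked from these same data for their small p, so a stable direction was likely from the start and is not separate evidence. For the member without a peak in Corn 2, the log2 difference in bases under peaks fell from 0.475 to 1.72e-04 when Corn 2 was left out. No paired analysis was possible because no fetus number occurs in both diets. The causes of these changes were not tested. The files give no read depth, so a score of 0 means only that no peak was called, and a score of 100 has no measured height. The alternatives that leave out fetuses, those on the ceiling and all on the number of peaks were added after seeing the data.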
